A study of Mus musculus with 6 samples.

Results

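Making a ribosome takes a long line of nucleolar machines, and 35 genes of that line are described here in a fast-twitch muscle of the mouse leg, the extensor digitorum longus (EDL). They were chosen by symbol: the precursor ribosomal RNA row Rn45s, 5 subunits of RNA polymerase I (Pol I), 3 of its initiation factors, 4 nucleolar chaperones or helicases, 7 proteins of the small nucleolar ribonucleoproteins (snoRNPs), 8 assembly factors of the small ribosomal subunit, 6 of the large subunit, and the transcription factor Myc. All 35 were among the 24411 genes of the deposited count table, and all 35 passed the filter on low counts, as did 12892 genes in total. RNA came from 3 mAktDKO mice and 3 control (floxed) mice, one EDL library per mouse. The mice of both groups, given as C57BL/6J, were 50 weeks old and carried floxed Akt1 and Akt2 alleles. The knockout line was made by crossing separate floxed and Cre lines. Whether the background of both groups matched throughout was not tested. The mAktDKO mice also carried Cre knocked in at the Mlc1f locus. Cre made from this locus acts in differentiated fibres, chiefly the fast type, so the precursor, vessel, connective tissue and nerve cells sampled with them are not its main targets.

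Ribosome production starts when Pol I, recruited to the ribosomal DNA by Ubtf, the selectivity factor that holds Taf1b, and Rrn3, transcribes one long precursor RNA. Guide RNAs in box C/D and box H/ACA snoRNPs direct methylation and pseudouridylation of that precursor, while separate sets of assembly factors fold, cut and export the small and the large subunit. In muscle the pathway is a known target of growth signalling through Akt and mTORC1, and Myc is the best known transcriptional activator of its genes.

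The library totals lay between 13738795 and 15445523 counts, so that 3 counts, taken as the smallest level the depth can show, equalled 0.194 to 0.218 CPM, the usual unit of counts relative to the size of the library. CPM values below are scaled by TMM, which adjusts for differences in library composition. The level of Akt2 followed the labels. Akt2 (chr7:27591552-27640826) lay at 51.3, 49.1 and 52.7 CPM in the mAktDKO mice and at 172, 133 and 142 CPM in the controls, a log2 fold change of -1.55 ± 0.106 (SE; edgeR adjusted p = 0.000923). Akt1 (chr12:112653821-112674884) differed less, with 55.6 ± 3.89 against 66.1 ± 0.56 CPM (mean ± SD, n = 3) and an edgeR adjusted p of 0.115. One library stood apart: the control mouse numbered 2 had a summed level of 6 fibro-adipogenic markers of 7305 CPM, whereas the other control mice had 15760 and 18420 CPM and the mAktDKO mice 18300 to 21750 CPM. That mouse held the highest control value for 25 of the 35 ribosome biogenesis genes (71.4%) and for 39.9% of all genes tested, and the results below are also given without it where its absence turned a sign or moved a value by over 1.5 times.

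The difference between the genotypes was small for most of the 35 genes. The log2 fold change (mAktDKO minus control) was negative for 24 genes and positive for 11, with a median of -0.15 beside a median of 0.0172 over all genes tested, where 47.5% were negative. Scaled to library totals instead of TMM the median of all genes moved to 0.16, and the 35 genes then split into 18 negative and 17 positive with a median of -0.01. Relative to the median of all genes they lay at -0.17 with either scaling. Without control mouse 2 the split was 21 negative and 14 positive, the median -0.10, and the distance to the median of all genes -0.12. The extremes were Rn45s at -0.64 and Myc at 0.87, and 10 genes lay within 0.1 of zero. None of the 35 was called by edgeR's quasi-likelihood test at an adjusted p of 0.01, a threshold that 3 of all 12892 genes passed (0.0233%). At an adjusted p of 0.05 the test called 1 of the 35, Myc, beside 1.18% of all genes (0.264% higher and 0.915% lower). That balance turned with the scaling: over all genes TMM gave 34 higher and 118 lower, and library totals 152 higher and 58 lower. With library totals both Myc (edgeR adjusted p = 0.0418) and Rn45s (edgeR adjusted p = 0.047) passed 0.05. The study itself used DESeq2, at an adjusted p under 0.01 and a q value under 0.05. Run here, DESeq2's Wald test at 0.01 called 2 of the 35, beside 3.09% of all genes with an adjusted p: Rn45s among the lower ones (2.28% of all genes) and Myc among the higher ones (0.809%). Unadjusted p-values under 0.05 were found for 9 of the 35 and for 24.5% of all genes tested: 8 lower (13.1% of all genes) and 1 higher, Myc (11.4%). Without control mouse 2 the count was 5 of 35 (14.3%; 19.3% of all genes), and without mAktDKO mouse 2 it was 4 (11.4%; 14.4% of all genes). With library totals it was 7 of 35 (20%; 28% of all genes). Over all genes 2967 were then higher and 648 lower at that threshold, against 1471 and 1693 with TMM.

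**Figure D1:**
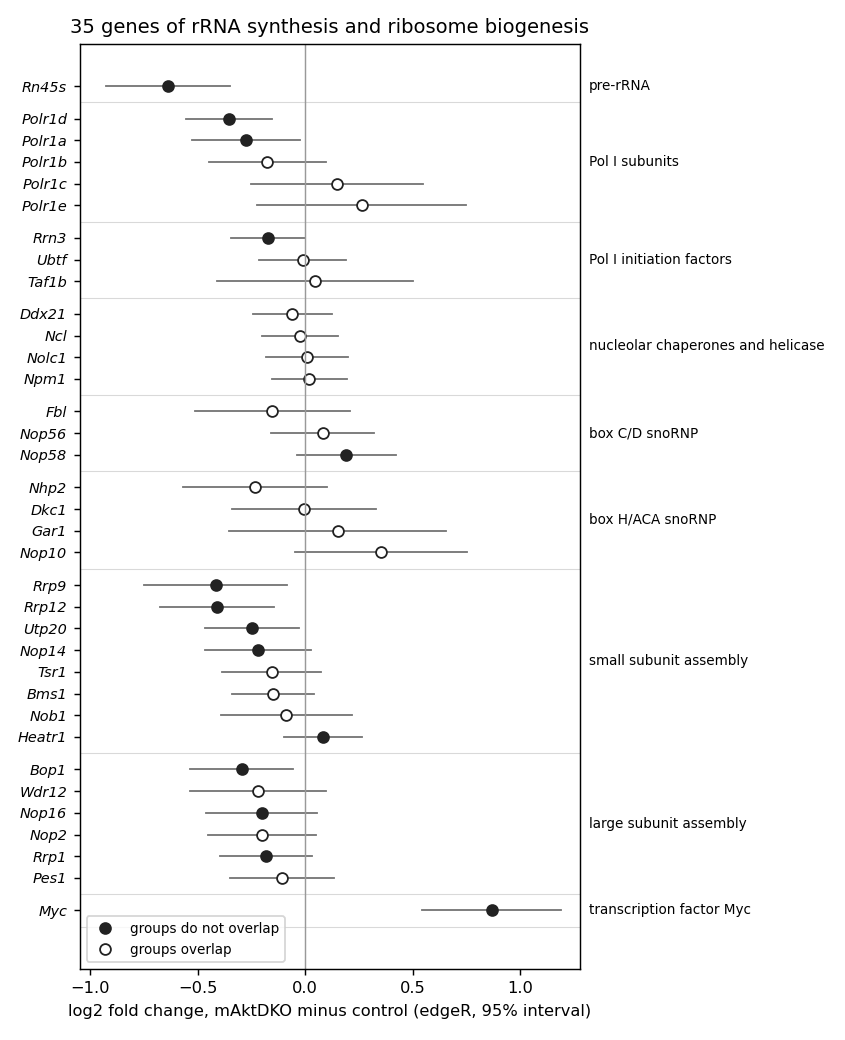
Log2 fold change of each of the 35 genes (horizontal axis, mAktDKO minus control, edgeR) with its 95% confidence interval as a line, grouped by role. Filled points mark genes for which the 3 mice of one group all lay outside the range of the other. Rn45s at -0.64 and Myc at 0.87 lie farthest from zero, and all 6 large subunit factors are negative (5 of 6 with library totals).

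The mice could also be compared one by one. The groups did not overlap, all mAktDKO mice being lower, for 11 of the 35 genes (31.4%; 16.6% of all genes tested), and all mAktDKO mice were higher for 3 (8.57%; 14.6% of all genes). The 11 were Rn45s, Polr1a, Polr1d, Rrn3, Nop14, Rrp9, Rrp12, Utp20, Bop1, Nop16 and Rrp1, and the 3 were Myc, Nop58 and Heatr1. Without control mouse 2 the counts were 12 lower (19.8% of all genes) and 5 higher (19.2%). Averaged over the 35 genes as log2 CPM relative to the control mean, the mAktDKO mice lay at -0.05, -0.08 and -0.10 and the controls at 0.08, -0.01 and -0.07. On this average the groups overlapped: control mouse 4 fell within the mAktDKO range, and control mouse 2 was the highest of the 6.

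**Figure D2:**
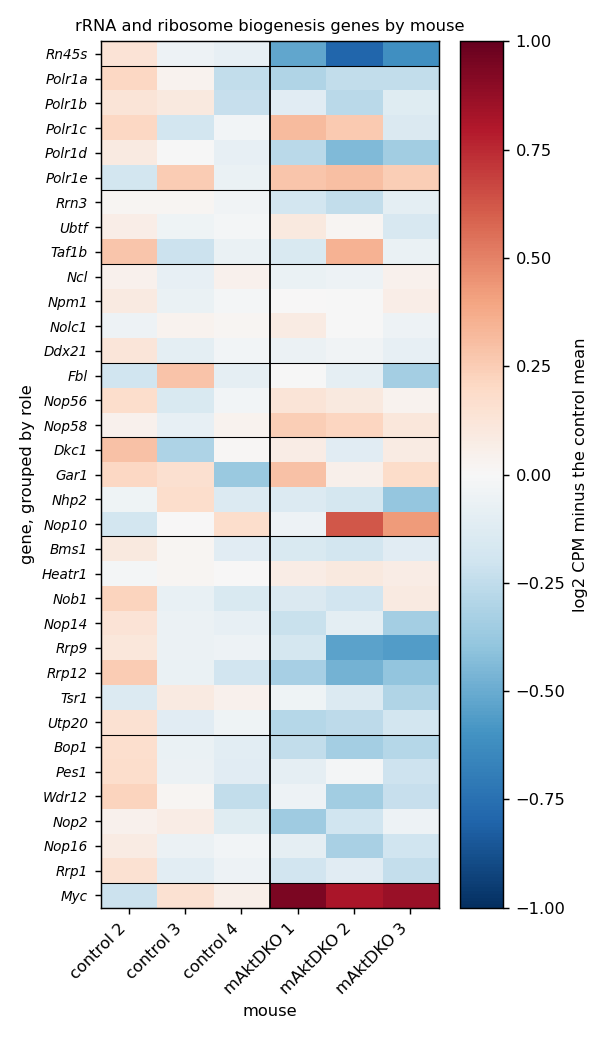
Heat map of the 35 genes (rows, grouped by role) in the 6 mice (columns), coloured by log2 CPM minus the mean of the 3 control mice on a scale from -1 to 1. Rn45s is blue and Myc red in every mAktDKO mouse, and the column of control mouse 2 is mostly red, as it held the highest control value for 25 genes.

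Rn45s is the row of the long Pol I transcript. The row also spans the mature rRNAs cut from it, and the libraries had been depleted of rRNA with a kit, so a value depends on how much rRNA the depletion left in that mouse as well as on how much was made. The row held 510565.88, 448508.94 and 444182.91 estimated counts in mAktDKO mice 1, 2 and 3 and 730943.93, 614548.98 and 579597.98 in control mice 2, 3 and 4. As a share of all counts it took 3.474%, 2.92% and 3.004% in the mAktDKO mice and 4.732%, 4.352% and 4.219% in the controls. Every mAktDKO mouse was below every control, and the gap between the groups was wider than the range within either. The mean share was 3.133% ± 0.299 against 4.434% ± 0.266 (SD, n = 3), a ratio of 0.706, and an exact two-sided permutation test gave p = 0.1, the smallest that 3 mice against 3 can give.

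On the TMM scale Rn45s lay at 32349, 26847 and 30435 CPM in the mAktDKO mice and at 51065, 44799 and 43788 CPM in the controls, a ratio of 0.642. The edgeR log2 fold change was -0.64 ± 0.128 (SE; 95% interval -0.93 to -0.35) with an adjusted p of 0.052, just outside the looser threshold, and DESeq2 gave an adjusted p of 8.19e-07. Scaled to library totals the change was -0.50 (edgeR adjusted p = 0.047). Without control mouse 2 it was -0.57 (edgeR adjusted p = 0.0808), and over the fits that left out each mouse in turn it ran from -0.70 to -0.57. Whether depletion worked equally in the 6 libraries was not tested. In bulk muscle RNA, fewer cells of a type and less RNA per cell cannot be told apart, for Rn45s as for every gene below.

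Myc (chr15:61985391-61990374), the activator, was the gene with the largest difference and stood in the opposite direction. Its row held 145, 141 and 127 counts in the mAktDKO mice and 59, 73 and 66 in the controls, or 9.19, 8.44 and 8.70 CPM against 4.12, 5.32 and 4.99 CPM. The groups were far apart, with the lowest mAktDKO mouse well above the highest control. The mean was 8.78 ± 0.379 CPM against 4.81 ± 0.619 CPM (SD, n = 3), a ratio of 1.82, and at a mean of 101.8 counts the counting error of a single value was about 9.91%. The log2 fold change was 0.87 ± 0.143 (SE; 95% interval 0.54 to 1.19), with an adjusted p of 0.0396 by edgeR and 0.00549 by DESeq2. Leaving out one mouse at a time kept it between 0.77 and 0.94, with edgeR adjusted p-values of 0.0404 to 0.198. Per kilobase of exon Myc was one of the weaker transcripts of the 35, at 3.23 CPM per kb in mAktDKO and 1.77 CPM per kb in control muscle.

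**Figure D3:**
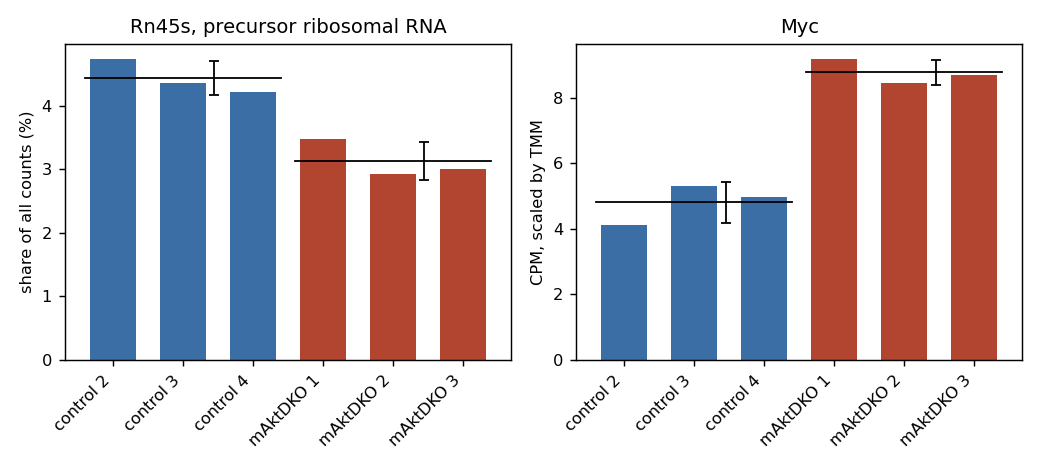
Rn45s as a percentage of all counts (left) and Myc in TMM-scaled CPM (right) in each of the 6 mice, one bar per mouse, blue for control and red for mAktDKO. The horizontal line is the group mean and the error bar its SD (n = 3). Rn45s lies between 2.92% and 3.474% in the mAktDKO mice and between 4.219% and 4.732% in the controls, and no Myc value overlaps between the groups.

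Marker genes of the cell types in a whole muscle were read from the same fit. The summed level of 6 macrophage and leukocyte markers was 78.7 to 94.9 CPM in mAktDKO and 58.7 to 79.5 CPM in control muscle, with 5 of 6 markers higher and a median log2 fold change of 0.38 (0.22 without control mouse 2). All 6 fibro-adipogenic markers (median 0.44) and all 5 adipocyte markers (median 1.04) were higher as well. The adipocyte sums overlapped, at 149.4 to 232 CPM against 127.9 to 156.1 CPM, with mAktDKO mouse 3 within the control range. Of 4 satellite cell markers 3 were higher (median 0.26), while their sums overlapped at 27.6 to 33.1 CPM against 29.2 to 34.2 CPM. Sums overlapped between the groups also for endothelial (475.5 to 529.9 against 402.4 to 497.5 CPM), mural (574.1 to 664 against 508.1 to 589.7 CPM), Schwann cell (236.8 to 322.4 against 216.2 to 254.1 CPM) and red blood cell markers (47.2 to 186.2 against 67.0 to 133.9 CPM). All 10 myofibre markers, Acta1 and Ckm among them, were lower, with sums of 209200 to 259200 CPM against 262700 to 283100 CPM and a median of -0.21, but 8 of 10 with library totals (median -0.07). Without control mouse 2 the fibro-adipogenic median was 0.20 with 5 of 6 markers higher. No list's defining markers were at 0 in a whole group except one haemoglobin gene, Hbb-bs, in the controls. All 4 red blood cell markers were higher (median 0.44), but 3 of 4 without control mouse 2. The largest log2 fold change among them, 10.7, was that of Hbb-bs. By edgeR 1 of the 4 had an adjusted p under 0.05 (0.018), beside 1.18% of all genes tested. The average of the 4 markers, as log2 CPM relative to the control mean, was 2.64, 2.00 and 1.18 in the mAktDKO mice and -0.06, 0.18 and -0.12 in the controls. This average rests largely on Hbb-bs. The part of these cell types in the values of Myc, Rn45s and the other genes was not tested.

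**Figure D4:**
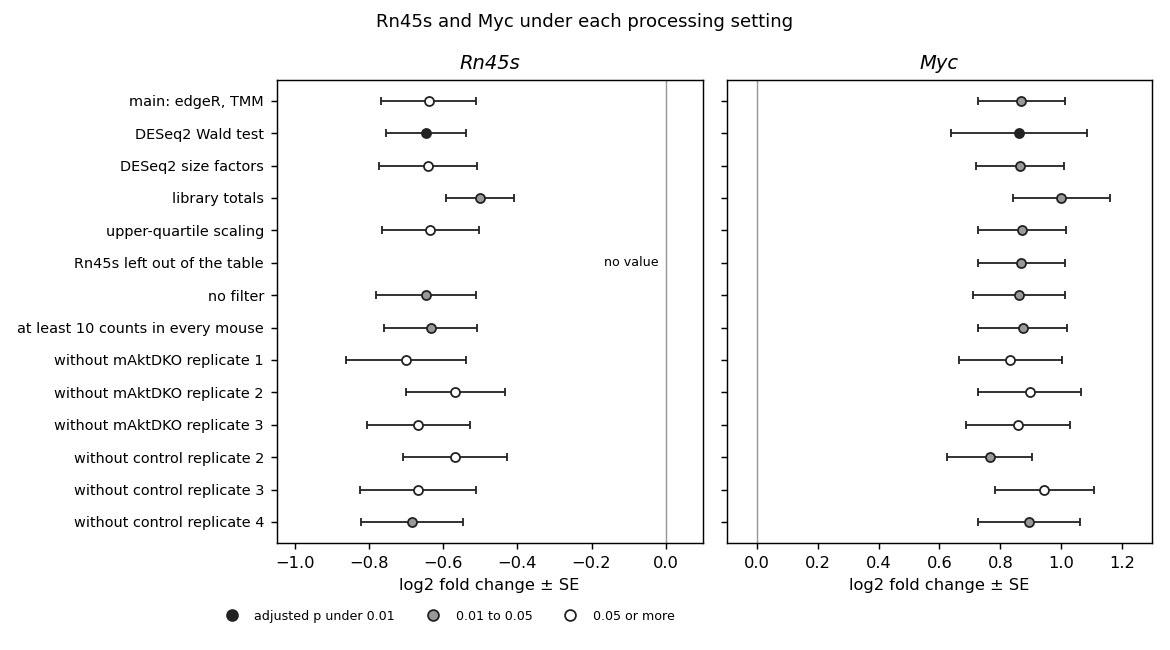
Log2 fold change (mAktDKO minus control) of Rn45s (left) and Myc (right) with its SE under each scaling, filter and left-out mouse. The fill gives the adjusted p, black under 0.01, grey from 0.01 to 0.05, white at 0.05 or more. Every estimate keeps its sign, and only DESeq2's Wald test puts either gene under 0.01.

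The Pol I subunits were mixed. Polr1d (chr5:147077050-147111597), a small subunit shared by Pol I and Pol III, had the smallest p of the 5 by edgeR. It lay at 31.4, 27.9 and 29.8 CPM in the mAktDKO mice and at 40.3, 37.8 and 35.9 CPM in the controls. The lowest control was above the highest mAktDKO mouse, the log2 fold change was -0.36 ± 0.088 (SE), and the adjusted p was 0.0693 by edgeR and 0.0545 by DESeq2. Polr1a, the largest subunit with the catalytic centre, was also lower in every mAktDKO mouse, by a narrow margin: the highest mAktDKO value was 54.4 CPM and the lowest control 54.5 CPM (-0.28 ± 0.112, edgeR adjusted p = 0.174). It was at -0.17 without control mouse 2 (edgeR adjusted p = 0.364). The second-largest subunit Polr1b had a log2 fold change of -0.18. Polr1c, the other subunit shared with Pol III, stood at 0.15, and Polr1e, which helps Pol I start and elongate, at 0.26, with groups that overlapped in each case. Polr1e was also the weakest of the mRNAs, at 0.554 CPM per kb in the controls, and its 95% interval ran from -0.22 to 0.75. Leaving out one mouse moved Polr1b between -0.28 (without control mouse 4) and -0.11 (control mouse 2), Polr1c between 0.06 (control mouse 3) and 0.26 (mAktDKO mouse 3), and Polr1e between 0.17 (control mouse 2) and 0.40 (control mouse 3). With library totals Polr1d was at -0.22 (edgeR adjusted p = 0.161), Polr1a at -0.14, Polr1b at -0.04, Polr1c at 0.295 and Polr1e at 0.40.

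Of the initiation factors, Rrn3 had the smallest p on the TMM scale. It encodes the growth-regulated factor that makes Pol I competent to start, and it lay at 50.9, 48.8 and 54.0 CPM in the mAktDKO mice and at 58.5, 58.6 and 56.4 CPM in the controls. The groups did not overlap, although the nearest values were only a few CPM apart, and the log2 fold change was -0.17 ± 0.0766 (SE; edgeR adjusted p = 0.202). With library totals it was at -0.04 (edgeR adjusted p = 0.758), the smallest of the 3 factors. Ubtf, which coats the active ribosomal DNA, was at -0.01 ± 0.0899, and Taf1b, a subunit of the selectivity factor, at 0.04 ± 0.202. These were 0.02 and 0.20 without control mouse 2. On the TMM scale the nucleolar chaperones and helicase showed the smallest differences of any role. With library totals all 4 were positive, with a median of 0.13. Npm1 (0.02), Ncl (-0.02) and Nolc1 (0.01) are abundant nucleolar proteins that bind pre-rRNA or assembling particles, and the DEAD-box helicase Ddx21, which couples Pol I transcription to processing, was at -0.06. Ddx21 had values of 66.6, 67.8 and 65.4 CPM against 75.3, 64.9 and 68.0 CPM, with control mouse 2 alone above the rest, and without that mouse it was at 0.00198. Under the same omission Npm1 was at 0.06, Ncl at -0.00465 and Nolc1 at -0.02. The 95% interval for Npm1, -0.15 to 0.19, shows what size of change this depth and n would still allow. Npm1 was also the most abundant mRNA of the 35 per length, with 31.4 CPM per kb in mAktDKO and 31 CPM per kb in control muscle.

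The snoRNP proteins had small positive medians, 0.08 for box C/D and 0.07 for box H/ACA. Leaving out one mouse moved them between 0.00762 and 0.18 and between -0.01 (without control mouse 4) and 0.20 (without control mouse 2), and library totals gave 0.22 and 0.21. Among the box C/D proteins, Nop58 was higher in every mAktDKO mouse, with 14.0, 13.6 and 12.7 CPM against 12.2, 11.2 and 12.1 CPM. The log2 fold change was 0.19 ± 0.102 (SE; edgeR adjusted p = 0.276). Nop56, its partner in the core, was at 0.08, and the methyltransferase Fbl at -0.15, both with overlapping groups. Fbl lies 529 kb beyond Akt2 on chromosome 7. Among the box H/ACA proteins, Nop10 had a log2 fold change of 0.35 ± 0.176 (SE; edgeR adjusted p = 0.248; 0.20 without mAktDKO mouse 2), from 11.2, 17.9 and 15.6 CPM against 10.3, 11.7 and 13.1 CPM. Mouse 1 of the mAktDKO group fell within the control range there. The pseudouridine synthase Dkc1 (-0.01), Gar1 (0.15) and Nhp2 (-0.23) also overlapped between the groups. Nhp2 ran from -0.30 without control mouse 4 to -0.14 without control mouse 3. Leaving out one mouse moved Fbl between -0.25 (without control mouse 2) and 0.00385 (control mouse 3), Nop56 between 0.00762 (control mouse 3) and 0.18 (control mouse 2), Dkc1 between -0.15 (control mouse 3) and 0.15 (control mouse 2), and Gar1 between -0.01 (control mouse 4) and 0.25 (control mouse 2).

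The assembly factors carried most of the negative values. For the small subunit on the TMM scale, 7 of 8 had a negative log2 fold change, 3 with an unadjusted p under 0.05 (13.1% of all genes tested were lower at that threshold), and the median was -0.19. With library totals 6 of 8 stayed negative, Nob1 turning to 0.05, and the median was -0.05. The same 6 of 8 count was found without control mouse 2, Nob1 turning to 0.03, with a median of -0.16. Rrp9 (chr9:106475963-106485424), a protein of the U3 snoRNP that guides the first cuts, had the largest change of the role with all mice, narrowly before Rrp12. Without mAktDKO mouse 2 or 3 or control mouse 3 or 4, Rrp12 had the larger change. Rrp9 lay at 7.60, 5.93 and 5.82 CPM in the mAktDKO mice and at 9.29, 8.24 and 8.31 CPM in the controls, all mAktDKO mice being lower (-0.42 ± 0.148, edgeR adjusted p = 0.139). Its exons overlap those of Parp3 on the opposite strand. Rrp12 (chr19:41862851-41896173), needed for export of both subunits, had the smallest p of the role. Its values were 39.2, 35.4 and 37.5 CPM against 58.7, 47.2 and 43.2 CPM, again without overlap, with control mouse 2 far above the other controls. The log2 fold change was -0.41 ± 0.118 (SE), with an adjusted p of 0.0913 by edgeR and 0.0422 by DESeq2, and the smallest change on leaving out one mouse was -0.28. Utp20, a large scaffold of the small subunit processome, lay at 24.3, 24.7 and 26.0 CPM against 32.9, 27.3 and 28.8 CPM (-0.25 ± 0.0965, edgeR adjusted p = 0.163). Nop14, another protein of the processome, lay at 14.9, 16.2 and 13.8 CPM against 19.1, 16.7 and 16.5 CPM (-0.22 ± 0.11, edgeR adjusted p = 0.247). Neither gene's groups overlapped, and control mouse 2 was the highest mouse for both. With library totals Utp20 was at -0.11, Nop14 at -0.08, Rrp9 at -0.275 and Rrp12 at -0.271. The cytoplasmic GTPase-like factor Tsr1 was at -0.16, the GTPase Bms1 at -0.15 and the endonuclease Nob1 at -0.09. Heatr1, which joins early processing to Pol I transcription, was the exception at 0.08, with 24.4 to 24.8 CPM against 22.8 to 23.5 CPM.

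All 6 large subunit factors had negative log2 fold changes, with a median of -0.20. With library totals 5 of 6 were negative, Pes1 turning to 0.03, and the median was -0.065. All 6 stayed negative without control mouse 2, and the median was -0.13. Bop1 (chr15:76452989-76477277), Pes1 and Wdr12 form one complex needed to process the large subunit precursor. Bop1 lay at 16.8, 15.7 and 16.3 CPM in the mAktDKO mice and at 22.4, 19.0 and 18.5 CPM in the controls. Every mAktDKO mouse was lower, with a log2 fold change of -0.30 ± 0.105 (SE; edgeR adjusted p = 0.140; -0.16 with library totals, edgeR adjusted p = 0.352). Bop1 shares exonic sequence with Mroh1 on the opposite strand. Its partners were at -0.22 (Wdr12) and -0.11 (Pes1), with overlapping groups. The rRNA methyltransferase Nop2 was at -0.20, Nop16 at -0.20 and Rrp1 at -0.18, and neither Nop16 nor Rrp1 overlapped between the groups. Nop2 ran from -0.29 without mAktDKO mouse 3 to -0.13 without mAktDKO mouse 1. Leaving out one mouse moved Wdr12 between -0.33 (without control mouse 4) and -0.10 (control mouse 2), Pes1 between -0.17 (control mouse 4) and -0.02 (control mouse 2), and Rrp1 between -0.24 (control mouse 3) and -0.10 (control mouse 2). The average over the 6 factors, as log2 CPM relative to the control mean, was -0.17, -0.22 and -0.20 in the mAktDKO mice and 0.14, -0.03 and -0.11 in the controls, so that all mAktDKO mice were lower and the gap between the groups was narrower than the range among the controls.

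Because Myc binds with Max to the E-box CACGTG, this palindrome was searched in promoter windows from 250 bases before to 50 bases after each gene's start (RefSeq, GRCm38.p6). The windows were at hand for 29 of the 35 genes, all but Rn45s, Myc, Npm1, Fbl, Rrp12 and Bop1. CACGTG was found in 5 of the 29 (17.2%), in 11.7% of the 9743 tested genes with a window and in 8.09% of all 27025 genes with one. The 30 bases around each match follow, in the direction of transcription, with the E-box in capitals. They are shown as matches to this motif beside genes whose values are given above.
Rrn3, chr16:13780472-13780501 (+): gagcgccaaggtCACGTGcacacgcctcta
Rrn3, chr16:13780639-13780668 (+): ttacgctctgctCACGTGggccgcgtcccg
Nop2, chr6:125131811-125131840 (+): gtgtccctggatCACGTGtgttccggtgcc
Pes1, chr11:3963965-3963994 (+): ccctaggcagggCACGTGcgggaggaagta
Tsr1, chr11:74898092-74898121 (+): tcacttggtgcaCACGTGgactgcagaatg
Utp20, chr10:88826765-88826794 (-): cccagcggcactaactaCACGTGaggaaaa

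Counted from the start base as 1, the matches begin at -215 and -48 in Rrn3, at -60 in Nop2, at 3 in Pes1, at 25 in Tsr1 and at 38 in Utp20. Rrn3 was the one gene with a pair of matches. The 5 genes had log2 fold changes of -0.17 (Rrn3), -0.20 (Nop2), -0.11 (Pes1), -0.16 (Tsr1) and -0.25 (Utp20), while Myc itself was at 0.87. With library totals they were at -0.04, -0.07, 0.03, -0.02 and -0.11 in the same order, and Myc at 1.00. Without control mouse 2 Pes1 was at -0.02, and without mAktDKO mouse 1 Nop2 was at -0.13. A match is a description of the letters and not evidence that Myc is bound there in muscle. The whole 250 bases before the start of Rrn3 (chr16:13780449-13780698, + strand) are given to show how the pair is spaced:
Rrn3: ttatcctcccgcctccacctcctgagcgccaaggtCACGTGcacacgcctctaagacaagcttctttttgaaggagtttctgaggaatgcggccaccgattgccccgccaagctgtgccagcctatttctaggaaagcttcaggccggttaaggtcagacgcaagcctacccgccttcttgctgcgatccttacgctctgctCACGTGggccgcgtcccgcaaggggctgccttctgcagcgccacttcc

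Other genes of the pathway, 227 on 11 lists, were read in the same fit, and 211 of them were tested. Of these, 144 had a negative log2 fold change and 67 a positive one, with a median of -0.09, whereas with library totals 89 were negative and 122 positive (median 0.045). No gene passed an edgeR adjusted p of 0.01 or 0.05, and 41 had an unadjusted p under 0.05, 37 of them lower and 4 higher (13.1% and 11.4% of all genes tested). These counts and shares are for the TMM scale. With library totals 648 of all genes tested were lower at that threshold and 2967 higher, against 1693 and 1471 with TMM. The DESeq2 test at 0.01 called 1 of the 211 (3.09% of all genes, 2.28% lower), the RNase P RNA Rpph1 (-0.55; DESeq2 adjusted p = 0.00272, edgeR adjusted p = 0.0642), at 136, 95.8 and 113 CPM against 157, 185 and 160 CPM in the controls. Rmrp, the related RNA of RNase MRP that cuts pre-rRNA, was at -0.26 with overlapping groups.

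Each list median below is followed in brackets by its range on leaving out one mouse and by its value with library totals. The remaining Pol I subunits had a median of -0.14 (-0.16 to -0.09; 0.00187), led by the shared subunits Polr2f (-0.48, edgeR adjusted p = 0.0684) and Polr2l (-0.46, edgeR adjusted p = 0.0752). The other Pol I factors had a median of 0.07 (-0.03 to 0.13; 0.21), its sign turning without control mouse 3 or mAktDKO mouse 2, with Taf1d of the selectivity factor at 0.50 (edgeR adjusted p = 0.147). Of 45 further small subunit processome genes 31 were negative, and 22 with library totals, at a median of -0.05 (-0.13 to -0.09; 0.09), with Pwp2 at -0.39 (edgeR adjusted p = 0.0945) in front. That median was smaller in size with all mice than with any single mouse left out. Of 58 further large subunit genes 41 were negative, and 25 with library totals, at a median of -0.115 (-0.118 to -0.0835; 0.0228). Eif6, which keeps the new large subunit from joining too early, was at -0.43 (edgeR adjusted p = 0.0836), Ddx24 at -0.32 and Wdr18 at -0.35. Late small subunit factors had a median of -0.09 (-0.13 to -0.06; 0.05), with Tsr3, which modifies the small subunit rRNA, at -0.54 (edgeR adjusted p = 0.0908).

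Pol III and its repressor Maf1 had a median of -0.15 (-0.20 to -0.11; -0.00946). Of these 22 genes 18 were negative, and 11 with library totals, Gtf3c3 of the initiation factor TFIIIC being first at -0.38 (edgeR adjusted p = 0.0765). Pre-rRNA nucleases had a median of -0.09 (-0.16 without control mouse 4 to -0.06 without control mouse 2; 0.04) and snoRNP assembly factors one of -0.07 (-0.13 to -0.02 without the same mice; 0.07). The Myc network, the partners and antagonists of Myc, had a median of 0.06 (0.02 without mAktDKO mouse 2 to 0.10 without mAktDKO mouse 1 or control mouse 2; 0.20), with the Myc-interacting zinc finger Zbtb17 at -0.40 (edgeR adjusted p = 0.0838), Mlxip at -0.35 and the Max partner Mga at 0.18. The median of the snoRNA host genes was 0.02 (-0.03 to 0.06; 0.17), its sign turning without control mouse 3, control mouse 4 or mAktDKO mouse 2. Among them Snhg18 stood at 0.86 (edgeR adjusted p = 0.0645) and Snhg14 at -0.86 (edgeR adjusted p = 0.150).

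**Figure D5:**
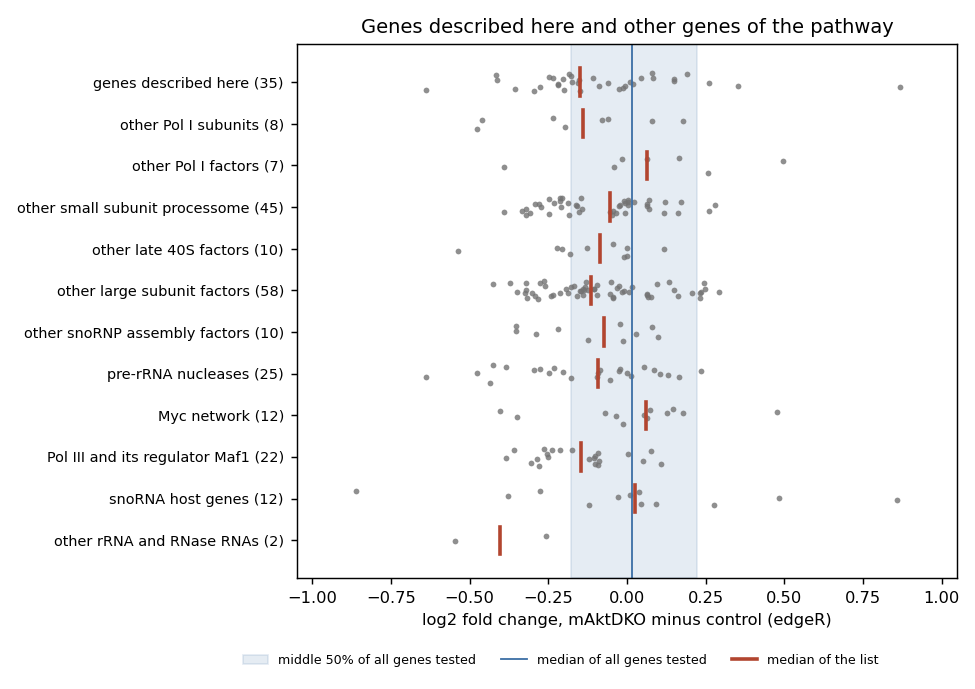
Log2 fold change (horizontal axis, mAktDKO minus control, edgeR) of the 35 genes and of 211 other tested genes of the pathway, one point per gene, with the number tested in brackets. Red bars are list medians, the blue line the median over all 12892 genes tested and the shaded band their middle 50%. Apart from 2 RNAs of RNase P and MRP, every list median on the TMM scale lies within the band, from -0.15 to 0.07.

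Precision set what could be seen. Across the 35 genes the SE of a log2 fold change ran from 0.0766 to 0.223 (median 0.112). Between mice of a group the median coefficient of variation of the mRNAs was 10.2% in the controls and 5.91% in the mAktDKO mice. The mRNA counts per mouse ran from 26 to 2605. For Polr1e and Gar1 DESeq2 gave no adjusted p. Exons of 8 of the genes overlap a gene on the opposite strand (Nop56, Dkc1, Nhp2, Heatr1, Rrp9, Tsr1, Bop1 and Wdr12), and whether reads were counted by strand is not given in the sources used here. Per length, the levels in control muscle spanned a ratio of 56, from Polr1e at 0.554 to Npm1 at 31 CPM per kb, with Ncl (15.8), Rrn3 (13.4), Ddx21 (13.4), Polr1d (12.5), Rrp1 (11.9), Rrp12 (11.4) and Nop10 (10.5) next.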

How the data were processed

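EDL RNA from 3 mAktDKO and 3 control mice was depleted of rRNA and made into directional libraries. The submitters' notes name bcl2fastq, STAR 2.6.1b, RSEM 1.3.1 and the build mm10. The values that the authors deposited are estimated counts per gene symbol from RSEM (expected counts), not scaled between mice. Because control columns (2 to 4) and control labels (1 to 3) are numbered differently, control columns were used only as members of their group.

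Counts were rounded and tested in R 4.3.3 with edgeR 4.0.16 (filterByExpr, minimum count 10; TMM; quasi-likelihood test, Benjamini-Hochberg adjustment over all 12892 genes tested), calling genes at an adjusted p under 0.01. SE is the log2 fold change divided by the square root of F. The steps were tested on simulated data. DESeq2 1.42.0 (Wald test), 3 other scalings, other filters, a threshold of 0.05, Rn45s left out and each mouse left out were alternatives. Loci are from GENCODE M21 (GRCm38); Rn45s has none there. CPM per kb divides by merged exon length.

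The 35 genes and all lists were chosen with earlier results of these data known. Values in every mouse are given for Rn45s, Myc, and in each role for the genes with the smallest p and the largest change; Utp20, Nop14, Rpph1 and Snhg18 were added after their values were seen. From each other list at most the 3 genes with the smallest p are named.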

Additional observations from a re-analysis of the deposited data

How the results depend on the processing

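No paired analysis was possible because columns and labels number the control mice differently. The count of the 35 genes called at an adjusted p of 0.01, which was 0 with edgeR, was 2 with DESeq2 and 1 at a threshold of 0.05. Over all genes the count of 3 became 328 with DESeq2, 32 without the filter and 152 at 0.05. Leaving out each mouse gave 0 to 8 calls. It was 0 without any one mAktDKO mouse (edgeR; 2441, 1871 and 2794 genes then had an unadjusted p under 0.05) and 8 without control mouse 2, and fewer samples were then fitted. Akt2 kept log2 fold changes of -1.63 to -1.43, with edgeR adjusted p-values of 0.0208, 0.0188 and 0.0165 without mAktDKO mouse 1, 2 or 3. Library totals moved the median of the 35 genes to -0.0122 and that of the other lists to 0.045, as the median of all genes moved to 0.156. They turned Ubtf to 0.13, Ncl to 0.113, Ddx21 to 0.0806, Dkc1 to 0.134, Nob1 to 0.0484 and Pes1 to 0.0345. Small values changed sign when 1 mouse was left out: Ubtf ran from -0.0704 to 0.0409, Taf1b from -0.127 to 0.2, Npm1 from -0.0189 to 0.0641, Nolc1 from -0.0292 to 0.0249, Ddx21 from -0.108 to 0.00198, Fbl from -0.252 to 0.00385, Dkc1 from -0.149 to 0.153, Gar1 from -0.0112 to 0.252 and Nob1 from -0.191 to 0.0299. The cause was not tested. Rn45s and Myc kept their signs under every alternative that gave a value. Depth limits the weakest genes, with a counting error of 16.9% for Polr1e.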

Other observations

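Ncl, Nop56, Nop58 and Tsr1 carry snoRNA genes in their introns, and the count table has rows for 8 RNAs at these hosts. All 8 rows held 0 counts in all 6 libraries, so the processed snoRNAs were not measured beside the mRNAs of their hosts. Among host genes that encode no known protein of the pathway, Snhg18 lay at 5.32, 6.05 and 4.18 CPM in mAktDKO muscle against 2.45, 3.21 and 2.95 CPM in control muscle, with no overlap between the groups (0.86 ± 0.203, SE; DESeq2 adjusted p = 0.0490).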
